A study of Mus musculus with 10 samples.

Results

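The difference between brown adipose tissue (BAT) and plasma in how the microRNAs (miRNAs) of small extracellular vesicles (sEVs) changed with exercise was measured as a difference of differences. For each miRNA the effect Exe against Sed was taken in BAT vesicles and in plasma vesicles, and the plasma effect was subtracted from the BAT effect, on the log2 scale. The miRNAs were those listed in both deposited tables under the same name, 394 of the 721 listed in either. The study profiled vesicle miRNAs of C57BL/6J mice by small RNA sequencing in 10 libraries. These were 3 Sed BAT, 3 Exe BAT, 2 Sed plasma and 2 Exe plasma libraries. Exe is the trained group and Sed, from the titles and the design text, was taken as untrained. The labels nevertheless give each of the 10 samples, those named Sed as well, a schedule of 90 min sessions at 2 per day over 4 weeks. The labels give no allele or agent besides exercise, and no age or sex, and do not say whether replicates are separate animals. All p-values below therefore speak of the spread among these libraries alone, which may be technical.

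An miRNA is a short RNA that guides Argonaute proteins to messenger RNAs, mainly through its seed, the stretch from base 2 to base 8. miRNAs that share a seed are grouped as a family. sEVs carry miRNAs out of cells, and BAT, the heat-producing fat, is known to release miRNAs into the circulation in such vesicles. Plasma vesicles come from many cells, among them blood cells, endothelium and liver, so that an miRNA can respond differently in the vesicles of one tissue and in the mixture in plasma.

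The mature sequences below, from RefSeq (GRCm38.p6), belong to miRNAs on which the results turn, with the seed in capitals. The first set holds the 3 near-identical let-7 miRNAs whose difference was called below 0.
let-7a-5p: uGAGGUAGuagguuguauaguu
let-7b-5p: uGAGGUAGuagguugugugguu
let-7c-5p: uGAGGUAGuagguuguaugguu
The second set shares a seed, too, and both members had a difference below 0.
miR-10a-5p: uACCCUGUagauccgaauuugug
miR-10b-5p: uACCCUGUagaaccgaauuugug
The third set holds miRNAs with seeds of their own among those printed, with differences on either side of 0.
miR-27b-3p: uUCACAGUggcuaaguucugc
miR-9b-3p: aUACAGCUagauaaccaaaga
miR-574-3p: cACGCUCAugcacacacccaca
miR-342-3p: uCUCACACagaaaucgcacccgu
miR-7a-1-3p: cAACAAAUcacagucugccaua
miR-451a: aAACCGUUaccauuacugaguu
The last pair comes from one host gene, Mcm7, and carried differences of opposite direction.
miR-25-3p: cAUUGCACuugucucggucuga
miR-106b-5p: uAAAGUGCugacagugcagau
Positions are counted from 1 at the 5′ end, with the base of the first-named miRNA first. From let-7a-5p to let-7b-5p the substitutions were A17G and A19G, from let-7a-5p to let-7c-5p A19G, and from miR-10a-5p to miR-10b-5p U12A. How reads were divided among near-identical miRNAs is not given in the sources used here, so their separate values are uncertain.

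On the same build, let-7b-5p lies at chr15:85707325-85707346 and let-7c-5p at chr15:85706616-85706637, both on the plus strand in exons of the noncoding transcript Lncppara. A second copy of let-7c-5p lies at chr16:77599672-77599693 in an intron of the noncoding Mir99ahg. miR-27b-3p lies at chr13:63300760-63300780 in an exon annotated to the protein-coding 2010111I01Rik. miR-10b-5p lies at chr2:74726074-74726096 in an intron of Hoxd3 and Hoxd4, and miR-574-3p at chr5:64970364-64970385 in an intron of Fam114a1. miR-342-3p lies at chr12:108658680-108658702 in an intron of Evl, and miR-7a-1-3p at chr13:58392800-58392821, minus strand, in an intron of Hnrnpk.

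Before the results, the libraries differ in 3 ways that touch them. Plasma libraries held 1209116 to 1798169 miRNA reads and BAT libraries 104064 to 172279. Plasma replicates lay far apart: 37.2% of the 234 tested miRNAs differed by over 4-fold between the Sed plasma replicates and 26.1% between the Exe plasma replicates, against 0.427% to 4.70% between any pair of BAT replicates of a group. Sed BAT replicate 2 stood apart from the other BAT libraries in its leading miRNA, miR-378a-3p, an miRNA of the brown adipocyte, at 17445 counts scaled to 1000000 (CPM) against 98385 and 126608 in the other Sed replicates and 119943 to 166120 in Exe. CPM here are on the scale of TMM, edgeR's trimmed-mean scaling, and are compared only within a source, since a level cannot be split into source, table and possible batch: these cannot be told apart. A constant offset between tables cancels in the difference of effects.

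The effect of exercise differed between BAT and plasma vesicles for 68 of the 234 miRNAs that passed the filter on low counts, 29.1% of those tested (edgeR quasi-likelihood test, adjusted p under 0.05, here named called). In 39 (16.7%) the effect was higher in BAT than in plasma and in 29 (12.4%) lower, and 105 had an unadjusted p under 0.05. The higher included miR-27b-3p, which targets adipogenic regulators, and miR-30b-5p, and the lower let-7b-5p, let-7c-5p, miR-10b-5p and miR-574-3p. The filter keeps an miRNA that is high in 1 group only, and 32 of the 68 had fewer than 4 reads in some group. The other 36, 17 higher and 19 lower, held at least 4 reads in each of the 4 groups.

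Fitted effects were larger in plasma than in BAT over the tested miRNAs at large. Plasma replicates also lay further apart, with a median log2 gap of 1.46 in Sed and 0.91 in Exe, against 0.29 to 0.58 in BAT. Each plasma effect rests on 2 such libraries per group, and how much of its size comes from their spread was not tested. Of the 187 with a read in all 4 groups, the plasma effect was the larger in 168 (89.8%) and the signs were opposite in 84. Over the 36 called miRNAs with at least 4 reads in each group, the plasma effect was the larger in 35 (97.2%), a share near that of all tested, and the exception was the liver miRNA miR-122-5p. The signs were opposite in 21 of these 36. Exe and Sed plasma libraries did not overlap in 63 of the 68 called miRNAs, beside 115 of 234 tested (49.1%), and BAT libraries in 24, beside 92 (39.3%). Plasma had fewer libraries per group than BAT, so its groups separate more easily by chance and these shares do not compare the sources. The 68 were also selected by a call to which plasma mostly gave the larger effect, so the 63 is not independent of the call. Both sources were without overlap in 21 of the 68, beside 38 of the 234 (16.2%). Across the 187 the interquartile range of the log2 effect was 1.07 in BAT and 5.30 in plasma. In the same joint fit of the 4 groups, 108 miRNAs (46.2%) were called for the effect in plasma alone, 45 higher and 63 lower in Exe. None (0%) was called for the effect in BAT alone, where 18 had an unadjusted p under 0.05 and DESeq2 called 8.

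These counts moved with how the spread was estimated, which in the joint fit is 1 common value for plasma and BAT libraries. With limma-voom and a spread for each source, 25 differences were called, 11 higher and 14 lower, with 27 effects called in BAT and 31 in plasma. With edgeR fitted and scaled in each source alone, an alternative chosen after seeing the data, 19 differences were called, 6 higher and 13 lower, with 44 in BAT and 22 in plasma. In all 3 treatments 13 miRNAs were called, of which 9 had at least 4 reads in each group. Of the 9, miR-27b-3p, miR-30b-5p and miR-9b-3p were higher, and let-7b-5p, let-7c-5p, miR-10b-5p, miR-342-3p, miR-486b-3p and miR-574-3p lower. The other 4, miR-122-3p, miR-375-3p, miR-486a-3p and miR-7a-1-3p, had a group with fewer than 4 reads. Of these miR-122-3p and miR-375-3p had at most 2 reads in any BAT library and entered the test through plasma, so for them these calls say little about BAT. Scaling moved the balance of directions: upper-quartile factors gave 63 higher and 20 lower and library size alone 27 and 51. The totals implied by RPM, with 277 miRNAs tested, gave 35 and 41, and counting identical miRNAs once, with 231 tested, gave 38 and 41. Upper-quartile factors moved the median difference of all tested miRNAs by 1.05 and library size alone by -1.03, from 0.57. Every one of the 68 kept its sign under the main scaling and the alternative scalings. With 1 plasma library left out, its group holds 1 library, which adds nothing to the estimate of the spread. Calls in such fits, counted among the alternatives below, are no support for a difference, and only the sizes are read.

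**Figure D1:**
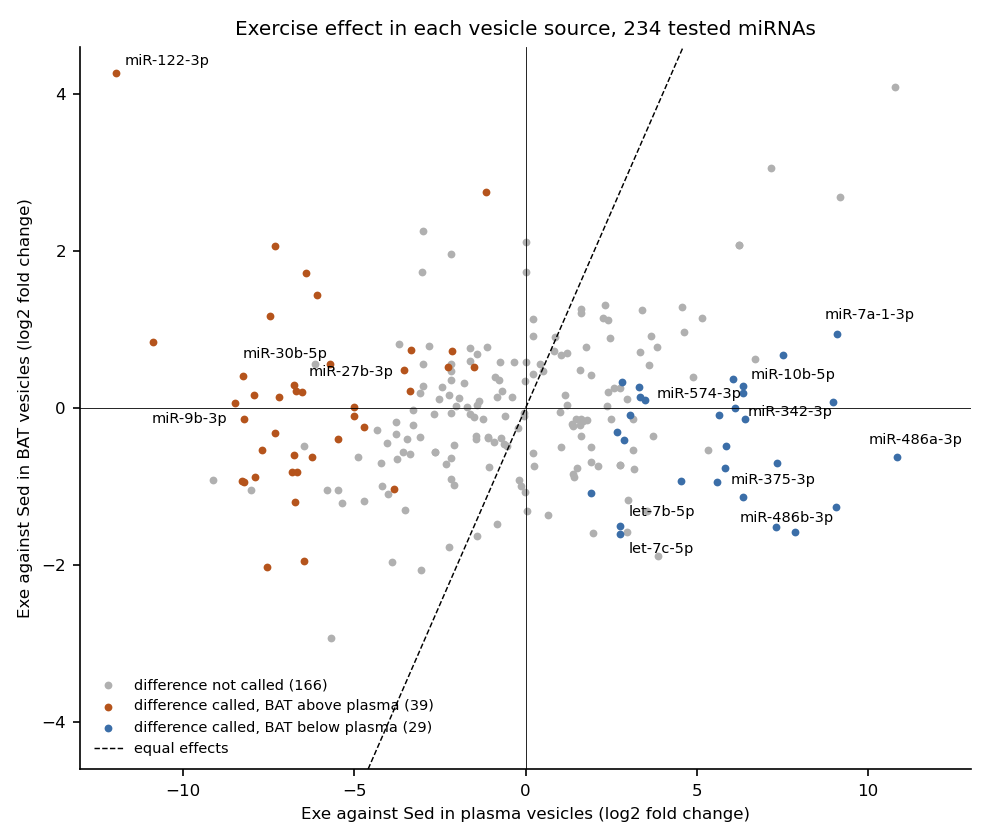
Effect of Exe against Sed in plasma vesicles (horizontal axis, log2 fold change) and in BAT vesicles (vertical axis, log2 fold change, on a narrower scale), with 1 point per tested miRNA. Orange and blue points are the 39 and 29 miRNAs whose difference was called, and they lie far to the left and right while spread little in the vertical direction; effects of miRNAs with a group at 0 reads are fitted values without a firm size.

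Of the let-7 miRNAs, which are abundant and restrain growth programmes, 3 were called, each lower in Exe than in Sed BAT and higher in Exe than in Sed plasma. let-7c-5p had 15817, 28268 and 12742 CPM in Sed BAT and 7551, 6231 and 4905 CPM in Exe BAT. Plasma Sed libraries held 20936 and 54684 CPM and Exe libraries 305286 and 209306 CPM. The groups did not overlap in either source, with Exe low in BAT and high in plasma. The log2 effect was -1.60 in BAT and 2.77 in plasma, a difference of -4.37 ± 0.72 (SE, adjusted p = 0.00264 by edgeR).

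let-7b-5p behaved alike in the order of its groups. It had 13142, 18715 and 9863 CPM in Sed BAT and 5111, 4564 and 5013 CPM in Exe BAT, and 9449 and 9494 CPM in Sed plasma against 83640 and 44409 CPM in Exe plasma. Again no Exe library overlapped a Sed library of its source. The effects were -1.51 in BAT and 2.76 in plasma, a difference of -4.26 ± 0.62 (SE, adjusted p = 0.00264 by edgeR). let-7a-5p, 17584, 19302 and 11195 CPM in Sed BAT and 7456 to 7587 CPM in Exe BAT, rose from 18709 and 51621 CPM in Sed plasma to 124700 and 138426 CPM in Exe plasma. Its difference was -2.99 ± 0.64 (SE, adjusted p = 0.00665 by edgeR). It kept the call in 24 of 25 alternatives and lost it with a spread for each source, while let-7b-5p and let-7c-5p kept theirs in all 25.

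Of the 10 listed let-7 and miR-98 5p arms, 9 were tested, 3 were called lower and none higher, beside 12.4% and 16.7% of all tested. BAT and plasma effects had opposite signs in 5 of the 9 and the same sign in 4. The median difference was -1.05 against 0.57 over all tested, and let-7g-5p, at 1.10, was the only member above 0. Depending on the scaling, the family's median lay between -2.28 and -0.09. Together these miRNAs took 12.1% to 26.4% of reads in Sed BAT and 6.94% to 9.02% in Exe BAT, and 7.30% to 13.4% in Sed plasma against 38.2% to 40.8% in Exe plasma. In both sources the shares of the Sed and Exe libraries did not overlap.

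Above 0, miR-27b-3p, an inhibitor of brown adipocyte differentiation, had the smallest p among miRNAs with at least 4 reads in each group. Its levels were 4008, 2215 and 3640 CPM in Sed BAT and 3502, 4815 and 5478 CPM in Exe BAT, where the groups overlapped. The plasma levels were 28829 and 30492 CPM in Sed and 2667 and 2441 CPM in Exe, with the replicates close together and the groups far apart. The effect was 0.48 in BAT and -3.54 in plasma, a difference of 4.02 ± 0.64 (SE, adjusted p = 0.00264 by edgeR), which was called in all 25 alternatives. miR-24-3p, from the same cluster and from a second one on another chromosome, had a difference of 2.88 ± 0.66 (SE, adjusted p = 0.00934 by edgeR), which without Exe BAT replicate 3 was 2.37 and no longer called.

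miR-30b-5p, of a family reported to promote thermogenic genes in brown fat, had 2925, 4219 and 2670 CPM in Sed BAT and 5343, 4989 and 4117 CPM in Exe BAT, overlapping by a little. Sed plasma held 4848 and 17519 CPM but Exe plasma 416 and 10.8 CPM. The difference was 6.27 ± 1.63 (SE, adjusted p = 0.019 by edgeR). The call was lost without Sed BAT replicate 1 (5.88) and without Sed plasma replicate 2 (5.04), and without Exe plasma replicate 1 the difference was 10.55 and called.

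miR-9b-3p, annotated opposite the brain miRNA miR-9, had 30.6 to 64.2 CPM in Sed BAT and 37.2 to 60.2 CPM in Exe BAT. Its plasma levels were 565 and 4016 CPM in Sed and 11.9 and 0.83 CPM in Exe. All of its difference of 8.57 ± 1.75 (SE, adjusted p = 0.00587 by edgeR) lay in plasma, since the BAT effect was 0.07.

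Below 0, miR-10b-5p, encoded among the Hox genes, had 489, 1105 and 531 CPM in Sed BAT and 1236, 733 and 625 CPM in Exe BAT. Sed plasma held 38.3 and 74.4 CPM and Exe plasma 4760 and 4447 CPM. BAT libraries overlapped and plasma libraries were far apart, with effects of 0.29 and 6.34. The difference was -6.06 ± 1.05 (SE, adjusted p = 0.00311 by edgeR), called in all 25 alternatives. Its seed partner miR-10a-5p had a difference of -3.20 ± 0.90 (SE, adjusted p = 0.0273 by edgeR), and lost the call without Sed BAT replicate 3 (-3.23), Exe BAT replicate 2 (-3.26) or Exe BAT replicate 3 (-2.99).

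miR-574-3p had 147 to 257 CPM in Sed BAT and 173 to 227 CPM in Exe BAT. Sed plasma held 98.2 and 86.1 CPM and Exe plasma 7259 and 1955 CPM. The groups overlapped in BAT and not in plasma, and the difference was -5.73 ± 1.07 (SE, adjusted p = 0.00403 by edgeR), called in all 25 alternatives. miR-486b-3p, the minor arm of an erythroid miRNA, had 52.1 to 61.3 CPM in Sed BAT, 21 to 29.8 CPM in Exe BAT, 12 and 43.1 CPM in Sed plasma and 3126 and 1459 CPM in Exe plasma. It was low in Exe BAT and high in Exe plasma, with a difference of -7.50 ± 1.24 (SE, adjusted p = 0.00264 by edgeR).

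miR-375-3p, the miRNA of pancreatic islets and other endocrine cells, was almost confined to plasma, with 0 to 2 reads in each BAT library. In plasma it had 295 and 147 CPM in Sed and 35278 and 35888 CPM in Exe, and took up to 2.45% of Exe plasma reads. Its difference of -8.03 ± 1.45 (SE, adjusted p = 0.00336 by edgeR) rests on plasma, and nothing can be read from 2 or 3 BAT reads per group; the BAT ratio of Exe to Sed was 0.631 (exact 95% counting interval 0.0527 to 5.51). miR-342-3p, a leukocyte miRNA, had 163 to 233 CPM in Sed BAT, 135 to 279 CPM in Exe BAT, 0 and 88.1 CPM in Sed plasma and 3764 and 2468 CPM in Exe plasma. Its difference was -6.12 ± 1.84 (SE, adjusted p = 0.0349 by edgeR). The call was lost without Sed BAT replicate 1 (-6.29) or 3 (-6.13) or Exe BAT replicate 1 (-6.48), 2 (-6.30) or 3 (-6.54), and without Sed plasma replicate 2 the difference was -13.29 and called.

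**Figure D2:**
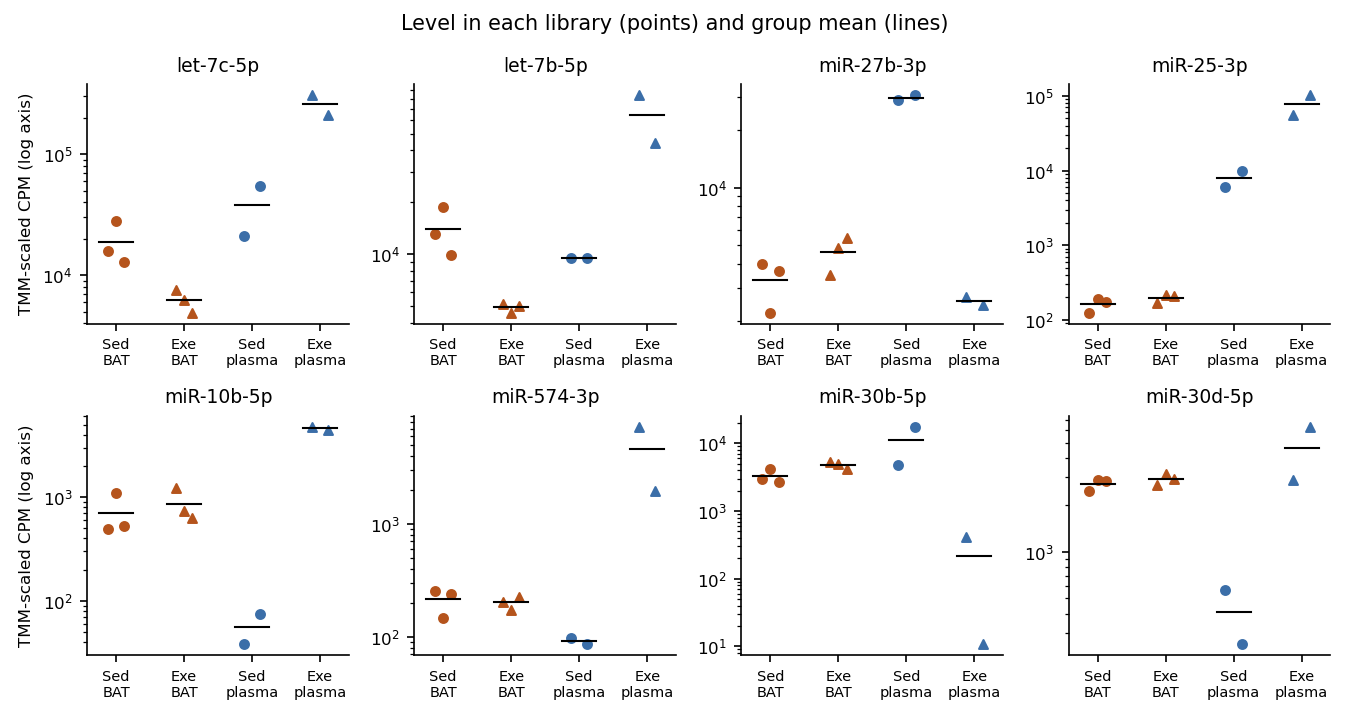
TMM-scaled CPM (log axis, its own range in each panel) of 8 miRNAs in the 10 libraries, with circles for Sed, triangles for Exe and lines for group means. let-7c-5p and let-7b-5p were lower in Exe than in Sed BAT and higher in Exe than in Sed plasma, and miR-27b-3p, miR-25-3p, miR-10b-5p, miR-574-3p, miR-30b-5p and miR-30d-5p differed mainly between the plasma groups.

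For the next 3 miRNAs above 0, BAT groups overlapped and Exe plasma was lower than Sed plasma. miR-31-5p had 22.9 to 41.6 CPM in Sed BAT and 24.8 to 36.8 CPM in Exe BAT, but 898 and 1441 CPM in Sed plasma against 5.94 and 1.66 CPM in Exe plasma, a difference of 8.08 ± 1.28 (SE). miR-200c-3p, which keeps cells epithelial, had 1581 and 2367 CPM in Sed plasma and 25.2 and 9.13 CPM in Exe plasma, with a difference of 6.02 ± 1.26 (SE). miR-194-5p, an miRNA of liver and gut, fell in plasma from 402 and 499 CPM to 8.91 and 0.83 CPM, with a difference of 6.73 ± 1.42 (SE). The differences of these 3 were called with any 1 BAT library left out, and were not called with separate fits.

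miR-30e-5p had 753 to 1298 CPM in Sed BAT and 442 to 570 CPM in Exe BAT, lower in every Exe library, and 1588 and 58.7 CPM in Sed plasma against 4.45 and 0.83 CPM in Exe plasma. Its difference was 7.29 ± 1.78 (SE), and 3.57 without Sed plasma replicate 1, both called. miR-29b-3p, a regulator of collagen genes, had 1260 to 1972 CPM in Sed BAT and 589 to 843 CPM in Exe BAT, so that Exe was lower in both sources. Its difference of 5.53 ± 1.55 (SE) lost the call without any of the Sed BAT replicates (5.09 to 5.58) or Exe BAT replicates 1 (5.65) and 2 (5.09), and was 8.76 and called without Exe plasma replicate 1.

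miR-221-3p and miR-135b-5p had differences of 5.02 ± 1.40 and 4.91 ± 1.47 (SE). Both lost the call without any of the Sed BAT replicates or without Exe BAT replicate 1 or 2, at 4.64 to 5.13 for miR-221-3p and 4.48 to 5.23 for miR-135b-5p. The call of miR-135b-5p was lost also without Sed plasma replicate 2 (4.58), and without Exe plasma replicate 1 its difference was 7.82 and called.

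The liver miRNA miR-122-5p was the exception in that BAT carried more of the difference. In BAT it had 45.1, 22.9 and 20.4 CPM in Sed and 463, 106 and 44.6 CPM in Exe, on 4 to 88 reads per library. In plasma it had 58347 and 218505 CPM in Sed and 67602 and 55771 CPM in Exe, with overlapping groups. The effects were 2.75 and -1.17, and the difference was 3.91 ± 1.27 (SE, adjusted p = 0.0413 by edgeR). The call was lost with any library other than Exe BAT replicate 3 or Sed plasma replicate 1 left out, with differences of 2.49 (without Exe BAT replicate 1) to 4.12 among the lost, and it held in 7 of 25 alternatives.

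Among the other leading miRNAs below 0, miR-676-3p had 97.0 to 183 CPM in Sed BAT and 184 to 220 CPM in Exe BAT, and 2.40 and 9.79 CPM in Sed plasma against 1483 and 887 CPM in Exe plasma. Its difference of -6.83 ± 1.24 (SE) and that of miR-574-5p, -5.47 ± 1.12 (SE), were called with any 1 BAT library left out and not with separate fits. miR-1198-5p had 2541 and 41.1 CPM in Sed plasma, replicates far apart, and 70036 and 53494 CPM in Exe plasma. Its difference was -6.53 ± 1.66 (SE), lost the call without Exe BAT replicate 3 (-6.12), and was -11.44 and called without Sed plasma replicate 1.

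miR-206-3p, a skeletal muscle miRNA, had 3154 to 5223 CPM in Sed BAT and 3450 to 5410 CPM in Exe BAT, and 62.3 and 0 CPM in Sed plasma against 4618 and 440 CPM in Exe plasma. Its difference was -6.16 ± 1.92 (SE). The call was lost without any of the BAT libraries (-6.34 to -5.75) and without Exe plasma replicate 1 (-3.62), and without Sed plasma replicate 1 the difference was -12.78 and called. miR-223-5p, the minor arm of a myeloid miRNA, had 3.47 to 14.9 CPM in the BAT libraries, 9.58 and 0 CPM in Sed plasma and 307 and 346 CPM in Exe plasma. Its difference of -5.68 ± 1.92 (SE) lost the call without any of the BAT libraries (-6.20 to -5.22), Sed plasma replicate 2 (-4.71) or Exe plasma replicate 2 (-5.28), and was -9.71 and called without Sed plasma replicate 1.

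**Figure D3:**
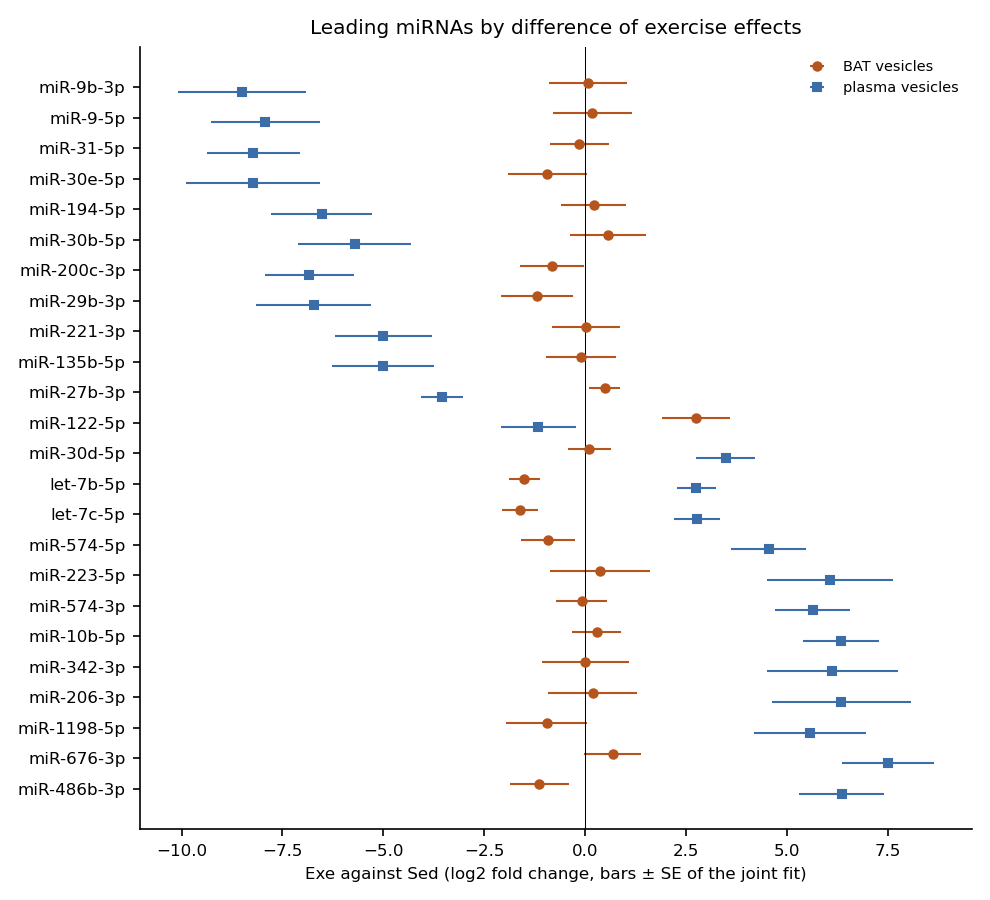
Effect of Exe against Sed (log2 fold change, bars ± SE of the joint fit) in BAT (circles) and plasma (squares) for the 12 leading miRNAs in each direction with at least 4 reads in each group. Plasma effects lie on either side of 0 far from the BAT effects, which span -1.60 (let-7c-5p) to 2.75 (miR-122-5p).

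In 6 further miRNAs, those of smallest p among the called with a group under 4 reads, the size of the change is given as a bound where that group had no read, and otherwise as a ratio with its interval. miR-193b-3p, which promotes brown fat differentiation, had 3456, 7778 and 5784 CPM in Sed BAT and 14687, 11493 and 12317 CPM in Exe BAT, higher in every Exe library. Its plasma reads were 13 and 37 in Sed against 0 and 0 in Exe, at least 33.7-fold lower in Exe against a floor of 3 reads over the group. The groups overlapped in neither source, and the difference was called (adjusted p = 0.00264 by edgeR) though not with a spread for each source or with separate fits.

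miR-122-3p, the minor arm of the liver miRNA, had 0 reads in each Sed BAT library and 1, 2 and 1 reads in Exe BAT, at least 1.26-fold higher. The Sed plasma libraries held 212 and 934 reads and the Exe plasma libraries none, at least 773-fold lower. miR-203-3p, an miRNA of the epidermis, was counted 97 and 268 times in Sed plasma and 0 and 2 times in Exe plasma, a Sed to Exe ratio of 369 (exact 95% counting interval 102 to 3062). In BAT its reads were 55 to 95 in Sed and 67 to 162 in Exe. Both the interval and the floor take in counting error alone.

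Below 0, miR-486a-3p had no read in Sed plasma and 237 and 892 reads in Exe plasma, at least 186-fold higher, against 20 to 40 reads in Sed BAT and 19 in each Exe BAT library. miR-7a-1-3p was counted 0 and 2 times in Sed plasma but 835 and 1637 times in Exe plasma, an Exe to Sed ratio of 611 (exact 95% counting interval 169 to 5044). The reads of miR-872-3p were 1 and 0 in Sed plasma and 725 and 423 in Exe plasma, a ratio of 567 (exact 95% counting interval 102 to 22419). In BAT these 2 had 4 to 8 and 4 to 12 reads in Sed and 6 to 17 and 9 to 11 reads in Exe. All 6 stayed called with any 1 BAT library left out.

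Among the 6 most abundant miRNAs, miR-451a, which is made in red cells, took 6.07%, 3.78% and 3.37% of shared miRNA reads in Sed BAT and 3.48%, 3.52% and 7.10% in Exe BAT. In plasma it took 69.8% and 52.8% in Sed and 11.1% and 13.2% in Exe. BAT shares overlapped and plasma shares did not. The difference was 3.61 ± 0.62 (SE, adjusted p = 0.00311 by edgeR) with effects of 0.22 and -3.39, and it was called in 23 of 24 alternatives. A share of this size enters the scaling of every other plasma miRNA, and without the 3 most abundant miRNAs 78 differences were called, 46 higher and 32 lower.

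miR-22-3p, abundant in adipocytes, had 62606, 29451 and 84681 CPM in Sed BAT and 80441, 83011 and 90597 CPM in Exe BAT, with 42204 and 52009 CPM in Sed plasma and 21758 and 11170 CPM in Exe plasma. Its difference was 2.04 ± 0.66 (SE, adjusted p = 0.0408 by edgeR). The call was lost without Sed BAT replicate 1 (1.92) or 2 (1.35), any Exe BAT replicate (1.82 to 2.04), Sed plasma replicate 2 (1.85) or Exe plasma replicate 2 (1.87).

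miR-378a-3p, from the gene of the coactivator PGC-1β, missed the threshold at 3.60 ± 1.27 (SE, adjusted p = 0.0565 by edgeR), with 16036 and 5370 CPM in Sed plasma and 2669 and 388 CPM in Exe plasma. It passed in 6 of 24 alternatives: upper-quartile factors (4.96), TMM factors within each source (3.72), DESeq2 (4.31), a mean of at least 50 counts (4.23), the replicate block (4.36) and without Exe plasma replicate 1 (5.58). The endothelial miRNA miR-126a-3p also missed it at 1.41 ± 0.71 (SE, adjusted p = 0.151 by edgeR). It passed in 4 of 25 alternatives: upper-quartile factors (2.45), DESeq2 (1.52), a mean of at least 50 counts (1.64) and without Sed plasma replicate 1 (2.09). Without Sed plasma replicate 2 it was 0.24.

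The 3 miRNAs that the study followed up in heart cells were chosen by it on these samples, so their direction is not independent evidence. miR-30d-5p had 2453 to 2857 CPM in Sed BAT and 2671 to 3133 CPM in Exe BAT, and 568 and 255 CPM in Sed plasma against 2871 and 6307 CPM in Exe plasma. BAT groups overlapped, plasma groups did not, and the difference was -3.38 ± 0.87 (SE, adjusted p = 0.0185 by edgeR). The call was lost without Sed BAT replicate 3 (-3.21), Exe BAT replicate 1 (-3.41), 2 (-3.55) or 3 (-3.63), or Exe plasma replicate 2 (-2.36).

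miR-128-3p had 51.0 to 110 CPM in Sed BAT and 152 to 184 CPM in Exe BAT, higher in every Exe library, and 26.3 and 491 CPM in Sed plasma against 3750 and 2763 CPM in Exe plasma. Exe was the higher in both sources, and the difference of -2.73 ± 1.41 (SE, adjusted p = 0.159 by edgeR) was not called, except by DESeq2 (-2.81) and without Sed plasma replicate 2 (-6.05). miR-125b-5p had 1026 to 1559 CPM in Sed BAT, 984 to 1339 CPM in Exe BAT, 168 and 901 CPM in Sed plasma and 2960 and 432 CPM in Exe plasma. Its groups overlapped in both sources, and its difference was -1.83 ± 1.29 (SE, adjusted p = 0.285 by edgeR). Without Exe plasma replicate 1 it was 0.15.

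Lists of miRNAs known from particular tissues and processes are described by their counts, beside 16.7% higher and 12.4% lower of all tested and an overall median of 0.57, or 0.47 with groups at 0 reads set at their bound. Some calls have a group under 4 reads and passed the filter through another group, so their number is given with each list and these counts and medians support nothing further. Of miRNAs that promote brown fat, 16 were tested, 5 were called higher and none lower, with a median difference of 2.08 (1.91 at the bound). The 5 were miR-193b-3p, miR-203-3p, miR-193a-5p, miR-182-5p and miR-30b-5p, of which 4, all but miR-30b-5p, had a group under 4 reads. miR-182-5p and miR-203-3p are counted again in the epithelial list below. Together the list held 13.5% to 28.3% of reads in Sed BAT, 28.9% to 37.1% in Exe BAT, 1.06% to 1.69% in Sed plasma and 1.16% to 2.47% in Exe plasma. These sums take in the abundant miR-378a-3p, which was low in Sed BAT replicate 2. Its own BAT effect was 0.79 with overlapping groups, and its difference was not called.

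Of miRNAs that restrain brown fat, 7 were tested, with 3 called higher and none lower and a median of 1.55. These were miR-27b-3p, miR-34a-5p and, with a group under 4 reads, miR-106b-5p. miR-34a-5p, which represses the browning of fat, had 6427 to 7539 CPM in Sed BAT and 3031 to 3674 CPM in Exe BAT, with 42831 and 54909 CPM in Sed plasma and 5140 and 1606 CPM in Exe plasma. It was lower in Exe in both sources, less so in BAT, with a difference of 2.83 ± 0.70 (SE, adjusted p = 0.0151 by edgeR), which lost the call without Sed BAT replicate 1 (2.63). Of 7 adipocyte miRNAs, miR-22-3p and miR-30e-5p were called higher and none lower, with a median of 2.04 (1.44 at the bound).

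Of 9 tested epithelial miRNAs, 6 were called higher and none lower, with a median of 6.02 (5.02 at the bound). They were miR-31-5p, miR-96-5p, miR-182-5p, miR-200c-3p, miR-203-3p and miR-205-5p, each lower in Exe plasma by the fit. A group under 4 reads stood behind 4 of the 6, all but miR-31-5p and miR-200c-3p. miR-205-5p, a keratinocyte miRNA, was read 228 and 284 times in Sed plasma and never in Exe plasma, at least 345-fold lower, and 1 to 14 times in the BAT libraries. The list held 0.162% to 0.179% of reads in Sed plasma and 0.065% to 0.315% in Exe plasma, so its summed share overlapped.

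Of 5 tested liver miRNAs, miR-122-5p, miR-122-3p and miR-194-5p were called higher and all had a difference above 0, with a median of 4.52. They held 1.89% and 7.46% of reads in the Sed plasma libraries and 4.14% and 4.17% in Exe plasma, with miR-122-3p, the 1 call with a group under 4 reads, at 0 in Exe plasma and Sed BAT. Of 4 tested neural miRNAs, miR-9-5p and miR-338-3p were called higher and none lower, with a median of 4.17 (2.98 at the bound), and miR-338-3p had a group under 4 reads. They held under 0.162% of reads in any library.

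Of 7 leukocyte miRNAs, miR-342-3p and miR-150-5p were called lower and none higher, with a median of -2.49. They held 1.10% to 1.38% of reads in Sed plasma and 3.62% to 3.65% in Exe plasma, and 0.904% to 1.35% in BAT. The 7 fibroblast and stromal miRNAs are 6 measurements, since miR-199a-3p and miR-199b-3p have identical counts. Of these miR-214-5p, with a group under 4 reads, and miR-199a-5p were called lower and none higher, with a median of -2.41, and 4 were below 0. They held 0.940% to 1.14% of reads in Sed plasma and 0.643% to 1.18% in Exe plasma, with overlap. The 6 tested red cell miRNAs are 5 measurements, as miR-486a-5p and miR-486b-5p are identical. Of these miR-486a-3p, with a group under 4 reads, and miR-486b-3p were called lower and miR-451a higher, with a median of -3.48. In sum the red cell list held 52.8% to 70.0% of reads in Sed plasma and 12.7% to 14.2% in Exe plasma, with miR-144-5p and miR-486a-3p at 0 in Sed plasma, and 3.50% to 7.23% in BAT. Its part in the other plasma effects was not tested.

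Of 5 muscle miRNAs, miR-206-3p was called lower and none higher, with a median of -1.11 that rose to 0.27 under 1 scaling. They held 3.13% to 5.86% of reads in Sed BAT, 2.56% to 3.62% in Exe BAT and 0.207% to 0.683% in plasma. None was at 0 over a whole group, though miR-206-3p was in 1 Sed plasma library. By the summed share, BAT vesicles carried muscle miRNAs in all libraries. Their part in the BAT effects was not tested. Of 3 endothelial and platelet miRNAs none was called, with a median of 0.36 whose sign changed with the scaling.

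**Figure D4:**
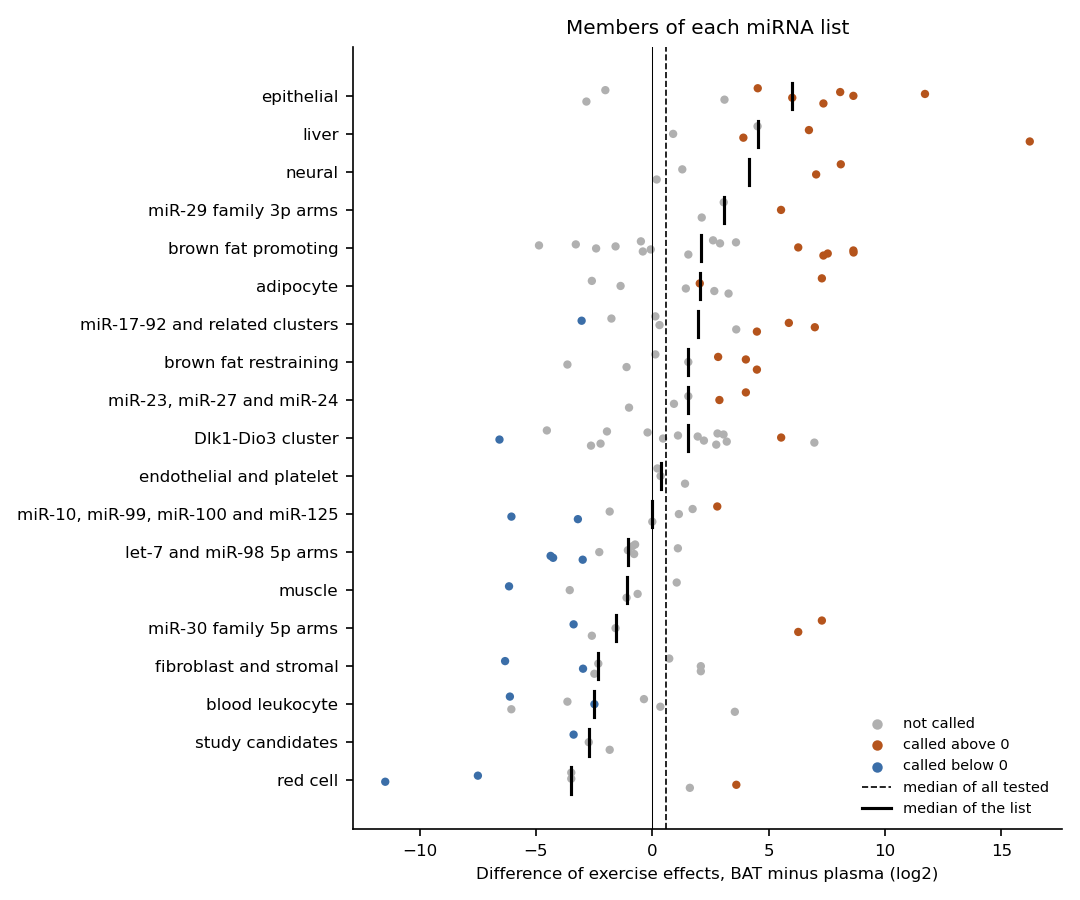
Difference of exercise effects, BAT minus plasma (log2), of each tested member of each list (points), with the list's median (thick mark) and the median of all tested miRNAs (dashed line, 0.57). Epithelial, liver and neural members lie mostly to the right and leukocyte members mostly to the left, and most lists span both sides of 0.

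Sequences of RefSeq matched 198 of the 234 tested miRNAs, and 335 of the 394 listed. Among these, 26 seeds were shared by at least 2 tested miRNAs, 72 in all. In 15 of the 26 all members had differences on one side of 0 and in 11 they did not. The 15 include miR-199a-3p with miR-199b-3p and let-7a-1-3p with let-7c-2-3p, pairs of identical counts that could not disagree. What share of seeds would lie on one side by chance was not tested. Calls fell in 14 of these seeds, each with calls in 1 direction. Most of the 14 held a single call, which could not disagree with another, so this says little about agreement within seeds. miR-30b-5p and miR-30d-5p had no matched sequence and are not counted here. The seed ACCCUGU of the miR-10 pair printed above held 2 calls, both lower. The 4 tested miRNAs of seed AUUGCAC, which are miR-25-3p, miR-32-5p, miR-92a-3p and miR-92b-3p, were all below 0, at -4.87 to -1.76. The 4 of seed AAAGUGC, miR-17-5p, miR-20a-5p, miR-93-5p and miR-106b-5p, were all above 0, at 0.13 to 5.87. Both seeds occur in cell cycle miRNAs of the miR-17-92 and related clusters, whose list does not hold miR-32-5p or miR-92b-3p.

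The same seed did not always go with the same difference. In the miR-30 family, 5 tested 5p arms gave differences of 7.29 for miR-30e-5p, 6.27 for miR-30b-5p, -1.58 for miR-30c-5p, -2.60 for miR-30a-5p and -3.38 for miR-30d-5p, 2 called higher and 1 lower. miR-30a-5p and miR-30e-5p differ by 1 base, C13U. The family held 0.206% to 0.513% of plasma reads and 1.60% to 3.13% of BAT reads, with overlapping ranges between Sed and Exe in both sources. All 3 members of the miR-29 family were above 0, at 2.13, 3.07 and 5.53, with 1 called.

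In the family of miR-10, miR-99, miR-100 and miR-125, which differ in seed, miR-10a-5p and miR-10b-5p were called lower and miR-99b-5p higher at 2.79 ± 0.91 (SE), with a median of 0.00 whose sign changed with the scaling. Of miR-23, miR-27 and miR-24, 5 were tested, 2 were called higher and none lower, with a median of 1.55. Of 16 tested miRNAs of the imprinted Dlk1-Dio3 cluster, miR-376a-3p was called higher and miR-341-3p lower, both with a group under 4 reads, with a median of 1.53 (0.61 at the bound).

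Several calls named only as list members lapsed with most single libraries left out. Over all 10 single libraries left out, whether or not the call held, the difference of miR-150-5p ranged from -3.64 to -1.88, of miR-199a-5p from -3.63 to -2.53, of miR-214-5p from -6.62 to -4.29, of miR-341-3p from -10.21 to -5.43, of miR-96-5p from 3.65 to 6.06, of miR-99b-5p from 2.03 to 4.30 and of miR-376a-3p from 4.34 to 6.28. Without Sed plasma replicate 2, miR-193a-5p fell from 7.54 to 1.43 and lost its call, as did miR-18a-5p, whose difference was -0.34 against 6.99. In Sed plasma these 2 had reads only in that replicate.

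Hairpins and clusters give a further view, since miRNAs cut from one transcript share its production. Of 35 hairpins with both arms tested, the arms lay on the same side of 0 in 21 and on opposite sides in 14. The 5p arms of miR-486a and miR-486b have identical counts, as do the 3p arms of miR-199a and miR-199b. The 35 are therefore not all separate measurements. Both arms were called in 4. In miR-122, miR-203 and miR-574 the arms had the same direction, and in miR-30d the 5p arm had a difference of -3.38 and the 3p arm one of 5.07. The miR-30d 3p arm had 10 and 1 reads in Sed plasma and none in Exe plasma, at least 7.42-fold lower, against 4 to 16 reads in the BAT libraries. The Pearson correlation of the arms over the 35 hairpins was 0.29, across hairpins that share libraries, given as a description.

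Clusters were formed from tested miRNA genes with a matched sequence and gaps of at most 10 kb. The miR-30b and miR-30d members of the miR-30 family, called in opposite directions, had no matched sequence and were not placed. Whether they share a cluster was not tested. Of the 30 clusters formed, 19 held a call and 1 held calls in both directions, among the placed miRNAs alone. Of all tested miRNAs 29.1% were called, and a cluster holds at least 2, so the 19 says little about clusters. miR-194-5p, miR-29b-3p, miR-24-3p and let-7c-5p each count in 2 clusters, which are thus not all separate. The cluster with calls in both directions lies within Mcm7, a gene of the replicative helicase, at chr5:138165321-138165818 on the minus strand (GRCm38.p6). Its miR-25-3p had 125 to 193 CPM in Sed BAT and 168 to 212 CPM in Exe BAT, and 6014 and 9836 CPM in Sed plasma against 54771 and 101634 CPM in Exe plasma. The difference was -3.04 ± 0.62 (SE, adjusted p = 0.00587 by edgeR) and called with any 1 BAT library left out.

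miR-106b-5p of the same cluster rested on 23 reads in Sed plasma and 1 in Exe plasma, a Sed to Exe ratio of 46.6 (exact 95% counting interval 7.56 to 1918). Its difference was 4.50 ± 1.43 (SE, adjusted p = 0.0383 by edgeR), held in 7 of 23 alternatives and lost without any of the BAT libraries (3.92 to 4.93) and without Sed plasma replicate 2 (3.44) or Exe plasma replicate 2 (3.62). Their neighbour miR-93-5p had a difference of 0.13. In the miR-17-92 cluster miR-18a-5p and miR-20a-5p were called higher, and miR-92a-3p stood at -1.76. miR-20a-5p, at 5.87 ± 1.52 (SE), lost the call without Sed BAT replicates 1 (5.79) or 3 (5.77) or Exe BAT replicates 1 (5.90) or 2 (5.57), and was 3.90 and called without Sed plasma replicate 2.

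**Figure D5:**
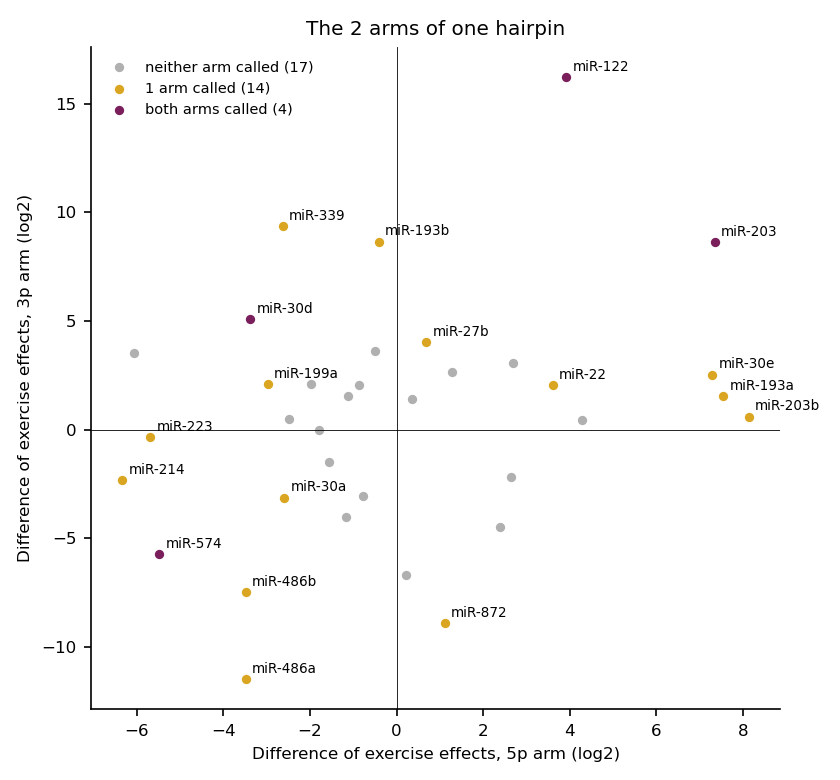
Difference of exercise effects, BAT minus plasma (log2), of the 5p arm (horizontal axis) and the 3p arm (vertical axis) of the 35 hairpins with both arms tested. The 4 hairpins with both arms called are miR-122, miR-203 and miR-574, whose arms share a sign, and miR-30d, whose arms do not; points with a group at 0 reads are fitted values.

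Some called miRNAs are annotated on opposite strands of one locus, and whether the counting used strand is not given in the sources used here, so their reads may not be separable. miR-9-5p and miR-9b-3p are such a pair, with differences of 8.10 ± 1.57 and 8.57 ± 1.75 (SE). In Sed plasma miR-9-5p had 249 and 989 CPM and in Exe plasma 2.97 and 1.66 CPM, low where miR-9b-3p was low. miR-203-3p and miR-203b-5p are another such pair, at 8.64 and 8.13, as are miR-24-2-5p and miR-3074-2-3p, at 7.17 and -2.15. In 3 pairs the counts of both members were identical in each library, so a pair is 1 measurement. None was called, at -3.48 for miR-486a-5p with miR-486b-5p, 2.09 for miR-199a-3p with miR-199b-3p and -4.17 for let-7c-2-3p with let-7a-1-3p.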

How the data were processed

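Vesicle miRNAs were measured in 10 libraries, 3 for each BAT group and 2 for each plasma group. The authors deposited a read count per miRNA and library in 1 table for each source, per the file headers. The BAT table as deposited also holds RPM values, found to equal the count over 1 total per library. The plasma table as deposited holds a second count beside each read count, whose making is not stated. The second count is smaller by 3.31 and 21.4 times in the Sed plasma libraries and by 1.41 and 1.64 times in the Exe plasma libraries. This ratio thus goes with the exercise group, and its bearing on the plasma effects was not tested. The second count was used only as an alternative. Per the submitters' processing notes, Bowtie 0.12.2 and the builds mm8 and mm9 were named, with no role. How reads were trimmed and counted, with which program, miRBase release and use of strand, and how vesicles were isolated is not given in the sources used here.

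Read counts of the 394 shared miRNAs were fitted with edgeR 4.0.16 (R 4.3.3, limma 3.58.1): TMM scaling, filterByExpr, robust quasi-likelihood, 4 groups in 1 model without a block, and the contrast of BAT effect minus plasma effect, with Benjamini-Hochberg adjustment over 234 miRNAs and a threshold of 0.05. The filter left 160 out. The SE is the log2 effect over the square root of F. Alternatives were upper-quartile factors, library size alone, TMM factors within each source, DESeq2 1.42.0, the totals implied by RPM, 3 other filters, limma-voom with and without a spread for each source, a replicate block, leaving out the 3 most abundant miRNAs, identical miRNAs counted once, the second plasma counts, each library left out, and, chosen after seeing the data, separate fits for each source. A group at 0 reads was set against a floor of 3 reads over the group, and intervals at 1 to 3 reads are exact at 95%. Scripts were tested on simulated data.

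The named miRNAs were the 12 largest called differences in each direction with at least 4 reads in each group, the 6 of smallest p among called ones with fewer, the 6 most abundant, the study's candidates, and, from each list, called members and the 2 of smallest p. miRNAs outside this rule (arms, seed partners and antisense partners) were named after their values were seen. The miRNAs, lists and tests were chosen with earlier results of these data known. Sequences come from RefSeq, host genes from GENCODE M21, and plots from Python 3.11.15 and matplotlib 3.10.9.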

Additional observations from a re-analysis of the deposited data

Results flagged for a closer look

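A difference in the effect of exercise between BAT and plasma vesicles was called for 52 named miRNAs. The call is by the test of the difference itself in the joint edgeR fit. The limits given above for single miRNAs hold here too. Some calls rest on plasma, with almost no BAT reads, and some on Sed reads in a single plasma library. All p-values here are edgeR adjusted p-values over the 234 miRNAs tested.

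Among those with a higher effect in BAT, the adjusted p was 0.00264 for miR-31-5p, miR-27b-3p, miR-193b-3p, miR-122-3p and miR-203-3p, 0.00311 for miR-451a, and 0.00501 for miR-9-5p. The adjusted p was 0.00579 for miR-205-5p, 0.00587 for miR-9b-3p, and 0.00629 for miR-194-5p and miR-200c-3p. It came to 0.00655 for miR-338-3p, 0.00934 for miR-24-3p, and 0.012 for miR-182-5p. The adjusted p came to 0.0144 for miR-30e-5p, 0.0151 for miR-34a-5p, and 0.0185 for miR-20a-5p. The value was 0.019 for miR-30b-5p, 0.0271 for miR-29b-3p and miR-221-3p, and 0.0322 for miR-193a-5p. The adjusted p was 0.0341 for miR-135b-5p, 0.0368 for miR-96-5p, and 0.0383 for miR-106b-5p. It came to 0.0408 for miR-22-3p, and 0.0413 for miR-122-5p, miR-99b-5p, miR-18a-5p and miR-376a-3p. The call of miR-122-3p says little about BAT, where it had almost no reads. Those of miR-18a-5p and miR-193a-5p rest on Sed plasma reads in a single library.

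Among those with a lower effect in BAT, the adjusted p was 0.00264 for miR-486b-3p, let-7c-5p, let-7b-5p and miR-486a-3p, 0.00311 for miR-10b-5p, and 0.00336 for miR-676-3p, miR-7a-1-3p, miR-872-3p and miR-375-3p. The adjusted p came to 0.00403 for miR-574-3p, 0.00587 for miR-574-5p and miR-25-3p, and 0.00665 for let-7a-5p. The value was 0.0179 for miR-1198-5p, 0.0185 for miR-30d-5p, and 0.0273 for miR-10a-5p. The adjusted p was 0.0349 for miR-342-3p, 0.0368 for miR-206-3p, miR-150-5p and miR-214-5p, and 0.0413 for miR-341-3p. It came to 0.0472 for miR-223-5p, and 0.0496 for miR-199a-5p. The call of miR-375-3p rests on plasma and says little about BAT, where it had almost no reads.

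In data outside the comparison, 2 miRNAs had more reads in Exe than in Sed. miR-6538, listed only for BAT, had 1046 reads over the Sed and 4225 reads over the Exe BAT libraries. miR-1969, listed only for plasma, had 0 reads over the Sed and 557 reads over the Exe plasma libraries. These were chosen as the miRNAs with the most Exe reads above Sed among those of 1 table, and were not tested.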

How the results depend on the processing

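Over 25 alternatives, the 52 named called miRNAs kept their call and direction in 944 results, kept the direction without the call in 315, and reversed in 1, miR-18a-5p, whose difference ranged from -0.34 (without Sed plasma replicate 2, SE 209) to 7.97 with 1 library left out. Named miRNAs that were not called passed in 23. The count of called differences, 68, was 25 with at least 10 reads in each group, 25 with limma-voom and a spread for each source, 44 with the second plasma values, 45 with the replicate block and 19 with separate fits, of which 17 were shared. It was 36 to 119 with 1 library left out: 36, 42 and 37 without Sed BAT replicates 1, 2 and 3, 37, 36 and 40 without Exe BAT replicates 1, 2 and 3, and 119 without Exe plasma replicate 1. DESeq2 gave 102, 59 higher and 43 lower. For the effect in BAT, 0 in the joint fit (18 unadjusted), the count was 8 with DESeq2, 27 with a spread for each source, 44 with separate fits and 0 to 0 with 1 library left out. For plasma, 108 in the joint fit, it was 44 with at least 10 reads in each group, 31 with a spread for each source and 22 with separate fits. It was 82 to 95 with 1 BAT library left out. Fewer miRNAs were tested in the stricter filter, and for the others the cause was not tested. Same-numbered replicates did not deviate together: the correlation of their deviations was 0.03, -0.07 and -0.13 in BAT and 0.02 in plasma, so the numbers were not taken as pairs. With the replicate block, the BAT count was 0 and the plasma count 77. BAT depth, 104064 to 172279 reads, limits miRNAs with few BAT reads.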

Other observations

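GC content of the mature miRNA, with a sequence for 198 of 234 tested, had a Pearson correlation across miRNAs of 0.33 with the BAT effect, 0.10 with the plasma effect and -0.03 with the difference. Called miRNAs of either direction and the others had the same median GC content, 45.5%. These are descriptions over miRNAs that share libraries.

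Of the 42 miRNAs listed only for plasma and the 285 listed only for BAT, none entered the difference.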
